A study of Danio rerio with 12 samples.

Results

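The genes described here are 5 members of the Wnt signalling pathway in zebrafish: the receptor genes *fzd10* and *fzd7a*, the secreted inhibitor gene *wif1*, and *axin2* and *sp5l*, which are known targets of the pathway. Their probe sets were taken by gene symbol from the annotation of the array, which gave 6 probe sets (2 for *fzd10* and 1 for each of the others) of 15502 that are not controls, or 5 of the 8793 genes named there. All 6 passed the filter on low values that left 10851 probe sets for testing. The series measured transcripts in 12 pieces of tissue cut by hand at successive levels of the paraxial mesoderm, from which the somites form, to follow gene expression as this tissue matures. The embryos were wild type of the AB line, grown at 23 °C to the 12-somite stage and otherwise untreated, and all groups share this genotype and stage. Position 1 was cut from the middle of the tailbud, and position 2 from its flank, on the left side in replicate 1 and the right side in replicate 2. The next 3 positions lie in the presomitic mesoderm (PSM), the unsegmented tissue between tailbud and somites: position 3 in its posterior, position 4 in its center and position 5 in its anterior portion. Position 6 is the last 2 somites formed. Each position has 2 arrays, called biological replicates in the labels. Nothing in the sources used here says how many embryos each piece came from or whether the pairs came from separate clutches, so the p-values measure only the spread between these samples.

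Wnt proteins bind Frizzled receptors on the cell surface together with Lrp5 or Lrp6. In the canonical branch this stops the destruction of β-catenin, which then enters the nucleus and switches on target genes with factors of the Tcf and Lef family. Fzd10 and Fzd7a are Frizzled receptors, and Wif1 binds Wnt proteins outside the cell and keeps them from their receptors. Axin2 is a scaffold of the complex that destroys β-catenin, so its induction feeds back negatively on the pathway, and Sp5l is a zinc finger transcription factor of the Sp family. In vertebrate embryos Wnt signalling is known for maintaining the progenitors of the tailbud and is high at the posterior end of the PSM.

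The values are MAS5 signals, a linear intensity per probe set, and errors beside means are the SD with n = 2. Differences are given on the scale of log2 of the signal plus 12.2, with the SE of the limma fit, and folds on this scale understate changes of low signals. A difference is called, and "rose", "fell", "higher" and "lower" are used, where the Benjamini-Hochberg adjusted p of the limma fit over all tested probe sets was under 0.05. A trend is the change from position 1 to position 6 on a straight line fitted to all positions, taken as equally spaced. It can differ from the difference between positions 6 and 1 themselves. Where the rest of the pathway is described, bracketed log2 values are trends unless another contrast is named. The median signal per array ran from 27.3 at position 6 to 68.4 at position 2. Marker lists followed the order of the pieces: the summed signal of 6 paraxial progenitor genes was 15769 to 17822 at position 1 and 1442 to 2761 at position 6, and that of 5 somite genes was 179 to 368 at position 1 and 3824 to 4586 at position 6. The pieces also held transcripts of other tissues, which differed between replicates. The summed signal of 7 notochord genes at position 1 was 77.0 in replicate 1 and 2530 in replicate 2, and that of 10 neural tube genes was 1237 and 3176. In pieces of tissue, fewer cells of a type and less RNA per cell cannot be told apart.

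All 5 genes differed among the 6 positions. The moderated F test called all 6 of their probe sets, where it called 11.2% of all tested probe sets. Without the intensity trend in the variances it missed *fzd7a* (limma, adjusted p = 0.0572) and *axin2* (0.0501). Along the linear trend from position 1 to position 6, *fzd7a* and *wif1* rose, where 7.1% of all probe sets were higher, and *fzd10* (both probe sets), *axin2* and *sp5l* fell, where 6.12% were lower. These trend calls held, with the same sign, under each of the 10 other settings tried and with each of the 12 arrays left out in turn. Over the 15 pairs of positions, 44 of the members' 90 comparisons were called, against 3.71% for all tested probe sets, and in 77 of 90 the 2 arrays of one position lay wholly above those of the other, against 45.4%. Without the intensity trend 26 of the 90 were called. The members were chosen with earlier results of these data known, so their shares beside those of all probe sets are descriptions only. By their called steps between neighbouring positions, *axin2* fell from the center of the tailbud to its flank, and *wif1* rose between the flank and the posterior PSM. Between the posterior and center PSM *sp5l* and *fzd10* fell, the latter only in its probe set of higher signal. After that *sp5l* rose into the anterior PSM and fell again into the somites. None of these single steps was called without the intensity trend. *fzd7a* had no called step between neighbouring positions with all 12 arrays.

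**Figure D1:**
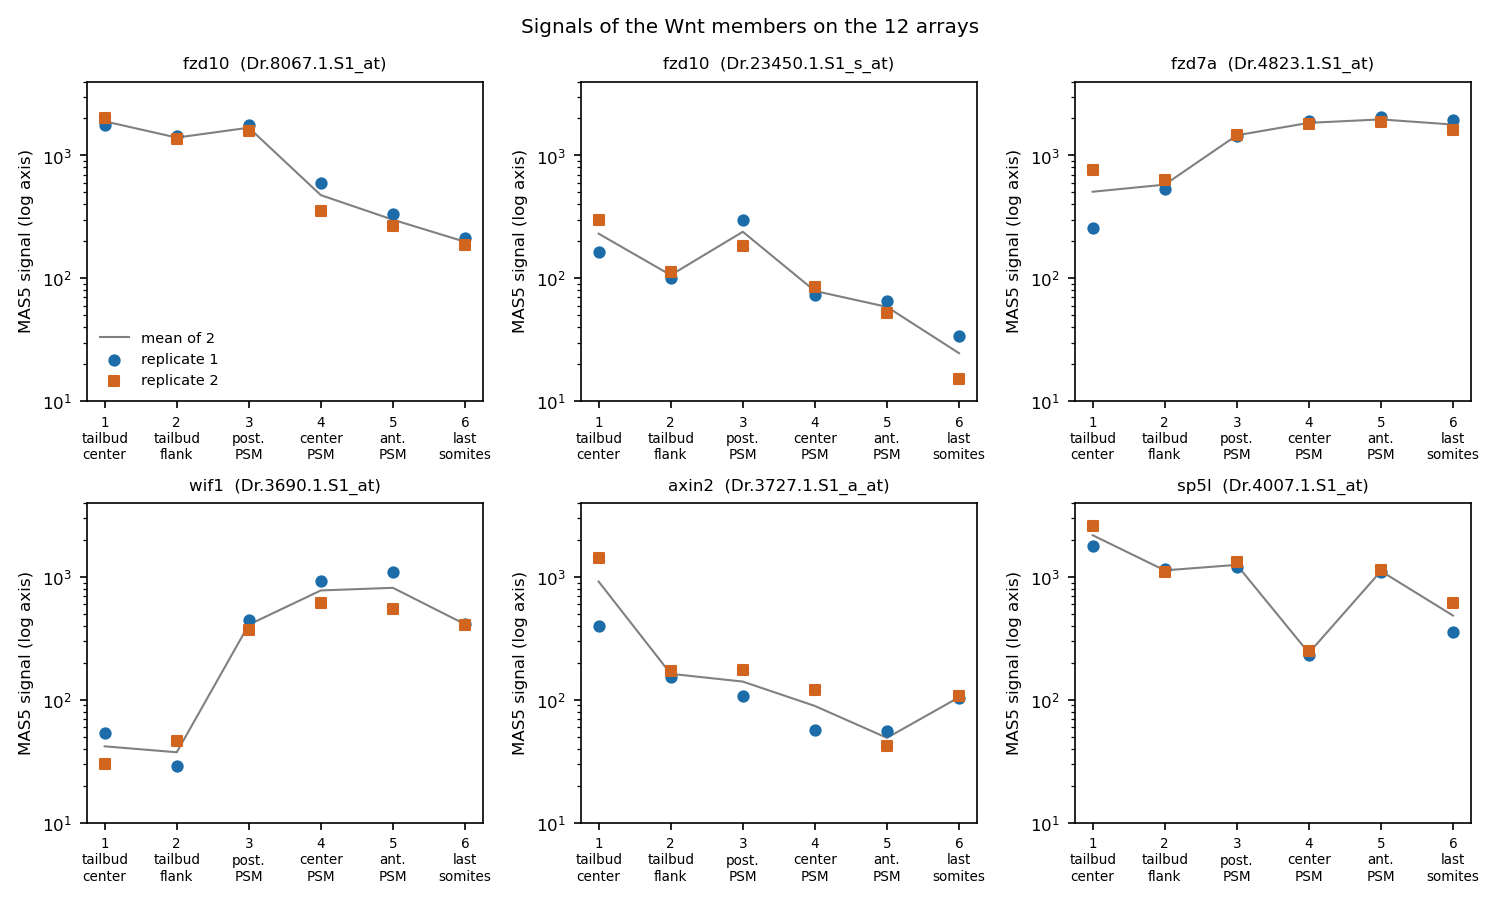
MAS5 signal (log axis) of the 6 probe sets on the 12 arrays, by position along the axis, with circles for replicate 1, squares for replicate 2 and a line through the mean of 2. Both *fzd10* probe sets have their lowest means at position 6, *fzd7a* and *wif1* are lowest at positions 1 and 2, the 2 *axin2* arrays of position 1 lie apart at 397.5 and 1436, and *sp5l* is lowest at position 4.

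The receptor gene *fzd10* was high in the tailbud and the posterior PSM and had smaller signals from the center PSM on. Its brighter probe set, whose ID ends in _at, measured 1766 and 2026.5 on the 2 arrays of the tailbud center, 1434 and 1363 in its flank, and 1780.5 and 1585 in the posterior PSM. It measured 599 and 352 at position 4, 334 and 266 in the anterior PSM, and 211 and 186 in the somites. At positions 4 to 6 it still lay between the 77.7 and 92.2 percentiles of the signals on those arrays. Every array of positions 1 to 3 was above every array of positions 4 to 6, and positions 1 and 3 overlapped. The step from position 3 to position 4 was -1.84 ± 0.24, a fall of 3.59-fold (limma, adjusted p = 0.000616), at a step where only 0.111% of all probe sets were called lower. That call was lost when the variances were modelled without the intensity trend (adjusted p = 0.133). The level fell further to the somites, by 1.17 ± 0.24 on the log2 scale between positions 4 and 6 (adjusted p = 0.00708, where 2.21% were lower), although neither of the single steps between them was called. This further fall was -0.41 and not called under median centring (adjusted p = 0.476), and not called without the intensity trend, without replicate 1 of position 4 (-0.79, adjusted p = 0.108) or without replicate 2 of position 6 (adjusted p = 0.0563). The whole fitted trend was -3.47 ± 0.20, an 11.1-fold fall along the line (adjusted p = 2.99e-10). The difference of position 6 from position 1 was -3.18 ± 0.24, or 9.06-fold. In the order of levels, which was positions 1, 3, 2, 4, 5 and 6, the only called step between neighbours was from position 2 to position 4. It was -1.58 ± 0.24 (limma, adjusted p = 0.0011, where 0.378% were lower), and was not called without the intensity trend (adjusted p = 0.096).

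The other *fzd10* probe set was dimmer and went the same way. Its ID ends in _s_at, the suffix for probes that can match more than 1 transcript. It measured 163 and 298 in the tailbud center, 101 and 112 in its flank, and 296 and 183 in the posterior PSM. It measured 72.9 and 85.0 in the center PSM, 64.8 and 52.4 in the anterior PSM, and 34.0 and 15.2 in the somites. Its arrays of position 6 lay below all others, and those of position 2 lay below those of both neighbours. The trend was -2.46 ± 0.38 (5.51-fold, adjusted p = 0.000143). The step from position 3 to position 4 was -1.43 ± 0.45 and was not called (adjusted p = 0.369). The drop at position 2 was not called either, with adjusted p = 0.322 against position 1 and 0.46 against position 3. The 2 probe sets correlated over the 12 arrays with r = 0.91, where the points share arrays and positions.

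The receptor gene *fzd7a* had the opposite slope. Its signals were 258 and 756 at position 1, 529 and 629 in the tailbud flank, and 1454 and 1465 in the posterior PSM. In the center PSM it measured 1895 and 1792, in the anterior PSM 2071.5 and 1860, and in the somites 1954 and 1615.5. The 4 tailbud arrays were all below the 8 arrays of positions 3 to 6, and the 2 arrays of position 1 lay on either side of those of position 2. The trend was 2.21 ± 0.26, or 4.61-fold (limma, adjusted p = 6.13e-06). Positions 4, 5 and 6 were each higher than position 1, where 2.57%, 3.11% and 5.41% of all probe sets were higher, and than position 2, where 0.627%, 2.3% and 6.34% were. Position 3 was higher than position 1 by 1.69 ± 0.31 (adjusted p = 0.00487, where 1.27% were higher). This call was lost under median centring (adjusted p = 0.0721) and without either array of position 3 (0.0912 and 0.0669), and its value was 0.94 without replicate 1 of position 1. The call of position 4 over position 2 was lost without replicate 1 of position 2 or either array of position 4. Without the intensity trend 5 of these 7 calls were lost: position 3 over position 1 (adjusted p = 0.193), position 4 over positions 1 and 2 (0.0614 and 0.191), and positions 5 and 6 over position 2 (0.0957 and 0.058). Without replicate 1 of position 1 the differences of positions 4 and 5 from position 1 were 1.27 and 1.36, against 2.03 and 2.12 with it. The step from position 2 to position 3 was 1.32 ± 0.31 and was not called (adjusted p = 0.156). Without replicate 1 or replicate 2 of position 1, which is not part of this step, it stayed at 1.32. With its SE then at 0.19 the step was called. Both arrays of position 3 lay below all 6 arrays of positions 4 to 6, but none of these differences was called. The anterior PSM minus the posterior PSM gave 0.42, with a 95% interval of -0.22 to 1.07, and the somites minus the posterior PSM gave 0.28, with an interval of -0.37 to 0.93. The middle positions 3 to 5 were higher than the ends by 0.96 ± 0.20 (adjusted p = 0.00832, where 2.41% of all probe sets were higher), a call lost under median centring (0.49, adjusted p = 0.168) and without the intensity trend (adjusted p = 0.149). It was 0.58 without replicate 1 of position 1. The ends include the low tailbud center, so this contrast does not show a peak in the PSM. The somites minus the center PSM gave -0.05, which was not called. Between the ends the difference was 1.97, and it was 1.22 without replicate 1 of position 1 and 2.73 without replicate 2. Replicate 2 of position 1, the array with the higher *fzd7a* signal, also had the higher notochord and neural tube sums, whose part in this signal was not tested.

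The inhibitor gene *wif1* was low in the tailbud, between the 34.1 and 57.3 percentiles of the signals on those arrays, and rose steeply in the posterior PSM. It measured 53.7 and 30 at position 1, 28.7 and 46.2 in the tailbud flank, and 448 and 370 in the posterior PSM. Farther forward it measured 935 and 619 in the center PSM, 1088 and 544 in the anterior PSM, and 416 and 409 in the somites. All 4 tailbud arrays lay below all 8 other arrays, and the center and anterior PSM overlapped each other. The step from the flank to the posterior PSM was 3.10 ± 0.35, an 8.58-fold rise (limma, adjusted p = 0.000398), at a step where 0.111% of all probe sets were called higher. It was not called without the intensity trend (adjusted p = 0.126). The 8 pairs of a tailbud position with a later one were the only pairs of this probe set that were called, where the shares of all probe sets called higher were those given for *fzd7a*.

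Positions 3 to 5 of *wif1* were higher than the ends by 2.08 ± 0.23 (4.23-fold, limma adjusted p = 3.12e-05), and this held under all 10 other settings and all 12 omissions of an array. The ends include the low tailbud center, so this contrast does not show a fall from the PSM to the somites. The somite arrays lay below the arrays of the center and anterior PSM, yet the differences of -0.86 ± 0.35 and -0.88 ± 0.35 were not called (adjusted p = 0.171 and 0.294). The somites and the posterior PSM differed by 0.02, with a 95% interval of -0.71 to 0.75.

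The target gene *axin2* was highest in the center of the tailbud. It measured 397.5 and 1436 there, 153 and 172 in the tailbud flank, and 107 and 175 in the posterior PSM. In the center PSM it measured 57.3 and 121, in the anterior PSM 56.2 and 41.9, and in the somites 103 and 107. Both arrays of position 1 were above the 10 others, but they differed from each other by more than any other pair of replicates of this gene. The trend was -2.68 ± 0.41 (6.43-fold, limma adjusted p = 0.000115) and was -2.03 (adjusted p = 0.00249) without replicate 2 of position 1. The 5 called pairs all involved position 1, against which 0.424%, 0.442%, 1.87%, 2.75% and 4.56% of all probe sets were lower at positions 2, 3, 4, 5 and 6. The largest of them was position 5 at -3.66 ± 0.48 (adjusted p = 5.09e-05), and that of position 3 was lost without replicate 2 of position 1, replicate 1 of position 3 or the intensity trend. Among positions 2 to 6 no pair was called, and the largest difference there was that of position 5 from position 2, at -1.52 ± 0.48 (adjusted p = 0.0883). Without replicate 1 or 2 of position 1, which is not part of this pair, it stayed at -1.52. With its SE then at 0.41 or 0.43 this difference was called. The middle positions were lower than the ends by 1.65 (adjusted p = 0.00368, where 1.65% of all probe sets were lower), a call lost without the intensity trend (adjusted p = 0.0717). The ends include the high tailbud center, so this contrast does not show a dip in the middle.

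The first step of *axin2*, between positions 1 and 2, was -2.14 ± 0.48 (limma, adjusted p = 0.0301). It was -1.23 and not called without replicate 2 of position 1 (adjusted p = 0.416), and not called without replicate 1 (adjusted p = 0.104) or replicate 2 (0.0683) of position 2, with array weights (0.0837) or without the intensity trend (0.169). The high *axin2* signal was on the same replicate 2 of position 1. Among the markers that define notochord and neural tube, *noto*, a notochord factor, measured 53.3 and 1282 in replicates 1 and 2, *shha*, a signal made by the notochord and floor plate, 4.6 and 210, and *sox3*, a neural progenitor factor, 26.9 and 621. The marker *sox2*, another such factor, ran the other way, at 371 in replicate 1 and 341 in replicate 2. The part of these tissues in the *axin2* signal was not tested.

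The target gene *sp5l* alternated along the axis. It measured 1774 and 2599.6 at position 1, 1158 and 1106 in the tailbud flank, and 1194.5 and 1315 in the posterior PSM. Its signals were 233 and 248 in the center PSM, 1089 and 1144 in the anterior PSM, and 355 and 616 in the somites. The 2 arrays of the center PSM were the lowest of all 12, and those of the anterior PSM were back at the level of the tailbud flank, with which they overlapped. The fall from position 3 to position 4 was -2.32 ± 0.24, or 5.01-fold (limma, adjusted p = 0.000121), where 0.111% of all probe sets were lower. The rise from position 4 to position 5 was 2.16 ± 0.24, or 4.46-fold (adjusted p = 0.000191), where 0.111% were higher. Both comparisons share the 2 arrays of position 4, and both calls held without either of them, but neither held without the intensity trend (adjusted p = 0.0685 and 0.174).

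After the anterior PSM *sp5l* fell again, by 1.23 ± 0.24 on the log2 scale into the somites (adjusted p = 0.0135, where 0.507% were lower). This last fall was less secure: it was -0.73 under median centring (adjusted p = 0.234), and it was not called without replicate 1 or 2 of position 5, without replicate 1 of position 6 (-0.85, adjusted p = 0.155) or without the intensity trend (adjusted p = 0.25). The somites remained above the center PSM by 0.93 ± 0.24 (adjusted p = 0.0341, where 2.31% were higher), a call lost under quantile normalization, without the intensity trend and in 7 of the 12 omissions of an array, among them replicate 2 of position 6 (0.54, adjusted p = 0.357). The anterior PSM and the flank differed by -0.02, with a 95% interval of -0.53 to 0.49. The fitted trend of *sp5l* was -1.89 ± 0.20 (adjusted p = 2.06e-06), which describes this course poorly. Its middle positions minus the ends gave -0.52 ± 0.16, not called (adjusted p = 0.0706).

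**Figure D2:**
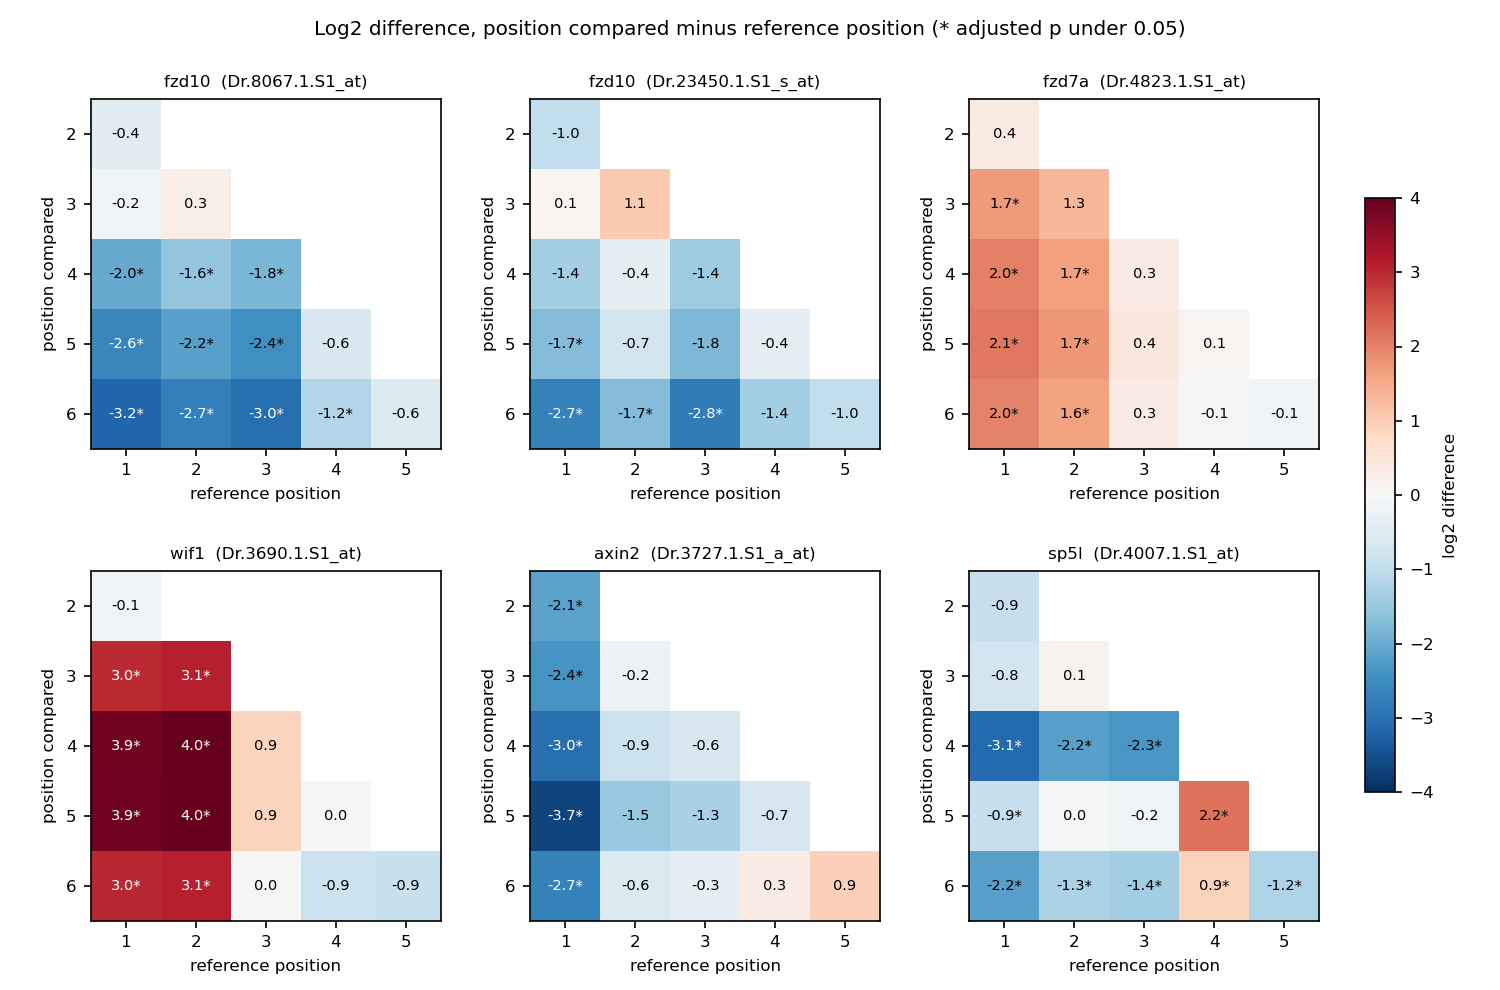
Log2 difference between each of the 15 pairs of positions for the 6 probe sets, as the position on the vertical axis minus the position on the horizontal axis, with red for higher, blue for lower and an asterisk for an adjusted p under 0.05. The called cells of *wif1* and *fzd7a* lie in the columns of positions 1 and 2, and those of *axin2* in the column of position 1. *sp5l* has red called cells for positions 5 and 6 against position 4 beside blue ones.

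Between members, signals on the log2 scale moved together or oppositely over the 12 arrays, which share the 6 positions and the scaling of each array. The rising genes *fzd7a* and *wif1* had r = 0.89. The brighter *fzd10* probe set had r = 0.65 with *axin2* and 0.64 with *sp5l*, and *axin2* and *sp5l* had r = 0.58. Between a rising gene and a falling one r was negative for each pair, from -0.77 for *wif1* and *axin2* to -0.44 for *wif1* and the dimmer *fzd10* probe set.

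Transcripts of other tissues were followed beside these courses. The epidermal list (9 of 10 genes on the array) had a summed signal of 1084 to 1983 in the tailbud center, 5390 to 10228 in the flank and 5223 to 8570 in the posterior PSM. It had 7967 to 9021 in the center PSM, 3857 to 5997 in the anterior PSM and 1118 to 2902 in the somites. The blood and endothelium list (7 of 10 genes) had 240 to 257 in the tailbud center, 455 to 2125 in the flank and 342 to 788 in the posterior PSM. Its sum was 1768.5 to 4427 in the center PSM, 1042 to 2512 in the anterior PSM and 1180 to 1815 in the somites. Across the steep rise of *wif1* from position 2 to position 3, the ranges of the epidermal and the blood and endothelium list overlapped between the positions. Those of the neural tube list did not, nor did those of the somite list, with 391 to 671 at position 2 and 875 to 1325 at position 3. At position 4, where *sp5l* was lowest on both arrays, the blood and endothelium list had its highest sum in replicate 2 only. Its sum in replicate 1 there, 1768.5, lay below that in replicate 1 of position 5, 2512. The neural tube list (10 of 11 genes) had 752 to 858 in the flank, 1323 to 2549 in the posterior PSM, 1129 to 1272 in the center PSM, 378 to 1261.5 in the anterior PSM and 121.5 to 278 in the somites. The list of PSM genes (5 of 7 on the array) had its highest sums, 3052 to 4132, at position 5, against 1756 to 1758 at position 4 and 280 to 475 at position 6. *mespba*, a segment boundary factor with a mean of 2136 at position 5 and 155 at position 4, carried most of that sum, while *tbx6* was highest at position 4, *her1* at position 3 and *her7* at position 1. Sums ran from 288 to 1765 for neural crest (5 of 5 genes), from 1136 to 2861.5 for endoderm and yolk (5 of 7) and from 22.5 to 361 for pronephros (4 of 5). The neural crest sum was highest at position 4 through *tfap2a*, also an epidermal gene, with a mean of 1502 there, whereas *foxd3* had means of 670 at position 1 and 67.3 at position 4. In both arrays of position 6, 4 of the 10 neural tube genes and 3 of the 7 notochord genes were under 12.2. The part of any of these tissues in the members' signals was not tested.

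**Figure D3:**
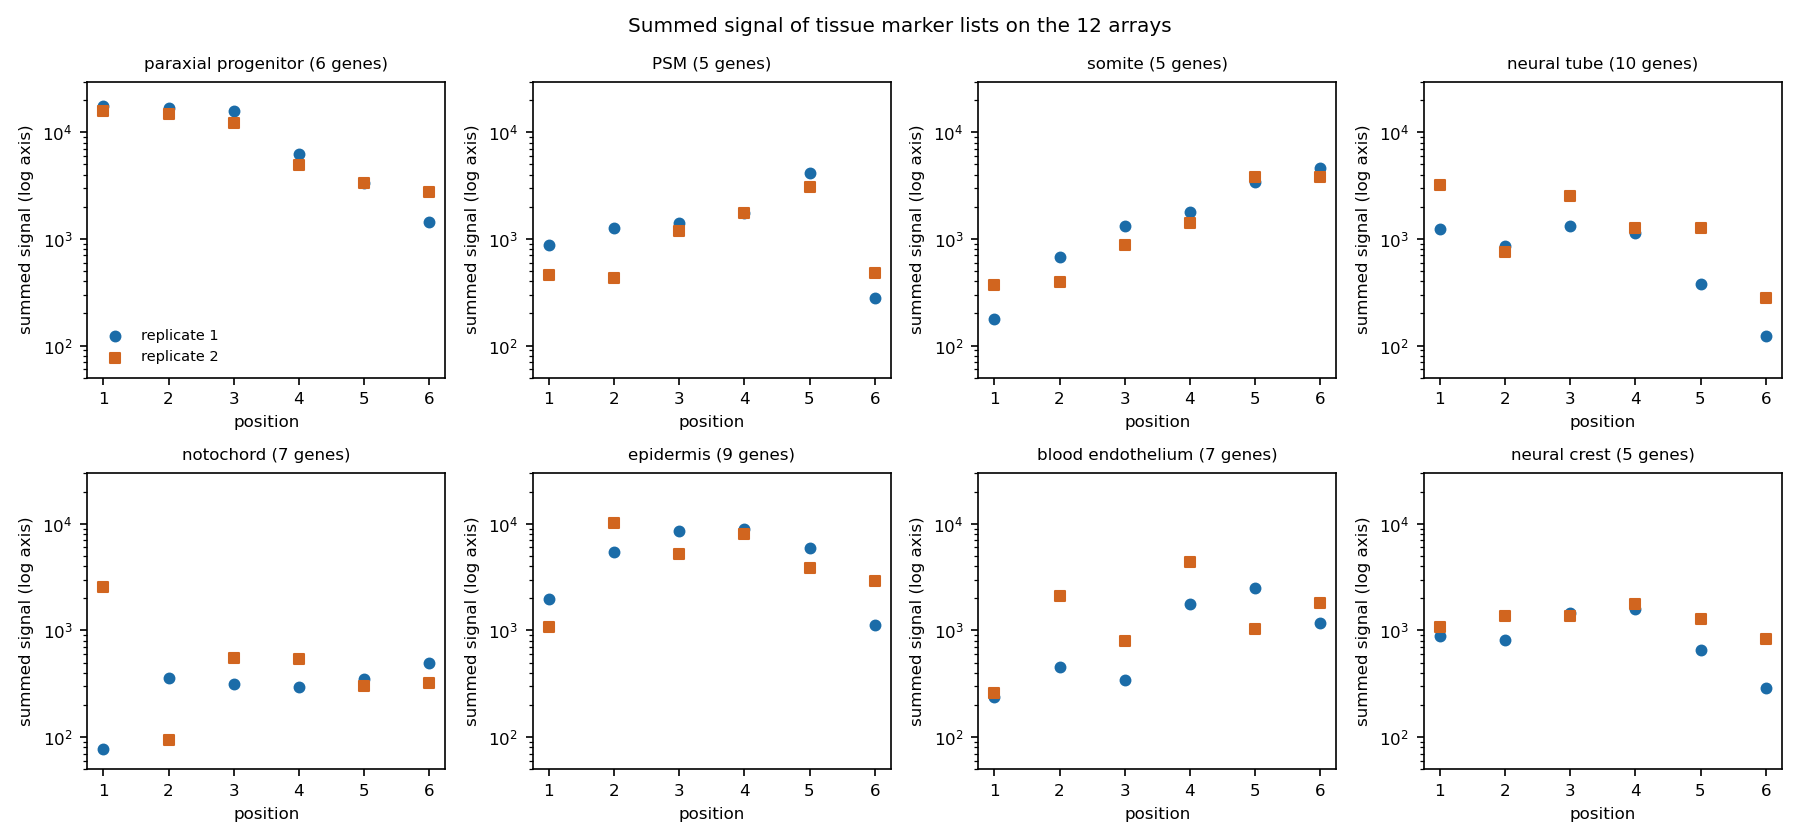
Summed MAS5 signal (log axis) of 8 tissue marker lists on the 12 arrays by position, with circles for replicate 1 and squares for replicate 2. The paraxial progenitor sum falls and the somite sum climbs along the axis, the PSM sum is highest at position 5, and the notochord sum of position 1 is 77.0 in replicate 1 and 2530 in replicate 2.

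The rest of the pathway was read from a list of 142 Wnt genes sorted by role, of which 68 had a probe set and 53 were tested, each by its probe set of highest mean. The counts per role overlap, since *axin2* (cytoplasmic), *lef1* (nuclear) and *dkk1b* (inhibitor) are also counted as targets. Along the trend 8 were higher and 17 lower, where 7.1% of all tested probe sets were higher and 6.12% lower, and without the 5 members 6 were higher and 14 lower of 48 tested. The median fitted change of those 48 was -0.46, against -0.13 for all tested probe sets. The latter median was 0.01 under quantile normalization and 0.24 under median centring, where the list had 8 higher and 16 lower, and 8 higher and 13 lower. The count of higher genes was 5 without replicate 1 of position 1 or without replicate 2 of position 6.

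Of 4 tested ligand genes 1 was lower and 1 higher, where 6.12% and 7.1% of all tested probe sets were. *wnt5b*, a ligand known mainly for signalling without β-catenin, measured 277 ± 94.8 at position 1, 156 ± 42.2 in the posterior PSM, 23.5 ± 21.4 in the center PSM, 65.5 ± 6.08 in the anterior PSM, then 58.3 ± 3.11 in the somites, a trend of -1.95 ± 0.43 (limma, adjusted p = 0.00374). *wnt11* went from 31.1 ± 38.2 to 207 ± 3.18, with a trend of 2.58 ± 0.75 (adjusted p = 0.0254) that was not called in 5 of the 12 omissions of an array, among them replicate 1 of position 1 (1.83, adjusted p = 0.179), or without the intensity trend (adjusted p = 0.135). *wls*, whose product carries Wnt proteins to the cell surface, fell from 2116 ± 64.6 to 689 ± 68.4 (-1.51 ± 0.17, adjusted p = 2.24e-06), with a smaller mean at each next position.

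Of 8 tested receptor genes 2 rose and 2 fell (7.1% and 6.12% of all tested probe sets), and the members *fzd7a* and *fzd10* had the largest trends in each direction. *fzd2* rose from 155 ± 13.9 to 447 ± 73.1 (1.29 ± 0.24, limma adjusted p = 0.000996). *ror2*, a receptor tyrosine kinase that binds Wnt5 ligands, fell from 558 ± 99.4 to 142 ± 13.6 (-1.85 ± 0.22, adjusted p = 5.08e-06). *fzd7b*, the paralog of *fzd7a*, is named here after its values were seen. It had no called trend (-0.27, adjusted p = 0.542) but differed among the positions (F test, adjusted p = 0.00772), with its highest mean at position 3, 764 ± 21.9, against 270 ± 41.9 at position 1 and 294 ± 58.7 at position 6. The other tested probe set of *fzd7b* had no called trend either (0.08, limma adjusted p = 0.958), and its means are not given here.

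Of 7 tested genes for secreted inhibitors, *wif1* alone had a called trend, and 6 were not called. Of all tested probe sets, 7.1% were higher and 6.12% lower along the trend. *sfrp1a*, which encodes a secreted Frizzled-related protein, was higher in the middle than at the ends (1.82 ± 0.37, limma adjusted p = 0.00668), although its signals were low, at 3.55 ± 0.636 at position 1, 83.6 ± 4.38 at position 4 and 28.1 ± 0.636 at position 6. Over the other settings that could test it, this difference ran from 0.98 to 2.95.

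Inside the cell, 1 of 11 tested cytoplasmic genes rose and 3 fell along the trend, among them *axin2*. Over all tested probe sets these shares were 7.1% and 6.12%. *dvl2*, a Dishevelled scaffold next to the receptor, measured 131 ± 16.4 at position 1, 139 ± 9.05 in the anterior PSM, and 449 ± 39.2 at position 6 (1.06 ± 0.27, limma adjusted p = 0.0121). This call was lost without replicate 1 of position 1 (adjusted p = 0.0601) or replicate 2 of position 6 (0.0768). *ctnnbip1*, an inhibitor of β-catenin, fell from 849 ± 124 to 416 ± 8.41 (-0.95 ± 0.18, adjusted p = 0.00116). Under median centring it was -0.59 and not called (adjusted p = 0.193). *ctnnb2*, 1 of the β-catenin genes, had a trend of -0.60 (adjusted p = 0.0146), while position 6 minus position 1 was not called (-0.52, adjusted p = 0.0939). Its trend was -0.24 under median centring, and not called there (adjusted p = 0.673), without position 2, without the intensity trend, or without replicate 2 of position 1 or replicate 1 of position 6.

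Of 7 tested nuclear genes 1 rose and 3 fell along the trend, where 7.1% and 6.12% of all tested probe sets did. *lef1*, a factor that works with β-catenin and is itself a target, measured 111 ± 23.3 at position 1, 155 ± 11.9 in the flank, 19.3 ± 12.7 in the center PSM and 21.7 ± 6.65 in the somites (-2.21 ± 0.44, limma adjusted p = 0.00183). *tle2a*, a corepressor gene, fell from 779 ± 83.9 to 326 ± 79.4 (-1.29 ± 0.24, adjusted p = 0.000903). Another corepressor gene, *tle3b*, was between 126 ± 42.3 and 273 ± 39.0 at positions 1 to 5 and reached 1050 ± 116 in the somites (2.15 ± 0.26, adjusted p = 6.34e-06). Its 2 other tested probe sets were not called, at -0.71 and 0.64. The same held for the 2 others of *pygo2*, at 0.34 and 0.45. *pygo2* had a trend of -0.77 at adjusted p = 0.0499, which 7 of the 10 other settings and 10 of the 12 omissions of an array did not call.

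Of 12 tested target genes 8 fell along the trend, where 6.12% of all tested probe sets did, and 1 rose along it, where 7.1% did. Among those that fell, *axin2* and *sp5l* are members. *tbx16*, *tbxta* and *cdx4*, the last named only for this overlap, are also in the paraxial progenitor list. The lists were chosen with earlier results of these data known, so these shares are descriptions only. Besides *axin2* and *sp5l*, *sp5a*, the paralog of *sp5l*, fell from 515 ± 57.2 to 87.5 ± 55.0 (-2.72 ± 0.41, limma adjusted p = 9.24e-05), with means of 110 ± 31.6 at position 4 and 66.3 ± 16.7 at position 5. *sp5a* therefore had no larger mean in the anterior than in the center PSM, a step at which *sp5l* rose. The largest falls were those of the T-box genes *tbx16* (-6.38 ± 0.24, adjusted p = 1.56e-12) and *tbxta* (-5.37 ± 0.33, adjusted p = 5.68e-10), which are also in the paraxial progenitor list and were known from earlier results of these data. The contrast of positions 3 to 5 with the ends was also lower for *tbxta* (-1.29 ± 0.25, limma adjusted p = 0.00432), except without the intensity trend (adjusted p = 0.0707). Its mean was smaller at each next position, with 1670 ± 396 at position 1, 199 ± 21.3 at position 3 and 32.5 ± 1.84 at position 6. The ends include the high tailbud center, so this contrast does not show a dip in the middle. *mycn*, a growth-promoting transcription factor gene, fell from 682 ± 321 to 62.9 ± 28.1 (-3.01 ± 0.35, adjusted p = 5.35e-06). *myca*, of the same family, had a trend of 2.00 ± 0.51 (limma, adjusted p = 0.0114), with means of 32.6 ± 14.0 at position 1 and 120 ± 16.1 at position 6. For *myca* the difference between these ends (1.59, limma adjusted p = 0.115) and the F test (adjusted p = 0.103) were not called. The *myca* call was lost without replicate 1 of position 1 (adjusted p = 0.0675) or replicate 2 of position 6 (0.0725).

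In the planar polarity branch 1 of 6 tested genes rose and 1 fell, where 7.1% and 6.12% of all tested probe sets did. *celsr1a*, an atypical cadherin gene, measured 120 ± 140 at position 1 and 620 ± 48.4 at position 6 (2.76 ± 0.45, limma adjusted p = 0.000282). Its trend was 1.75 without replicate 1 of position 1 and 3.76 without replicate 2. *prickle1b* had a trend of -0.84 (adjusted p = 0.0219), which was -0.48 and not called under median centring (adjusted p = 0.417) and -0.47 without replicate 1 of position 1 (adjusted p = 0.235). That call was also lost without the intensity trend and in 3 other omissions of an array.

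**Figure D4:**
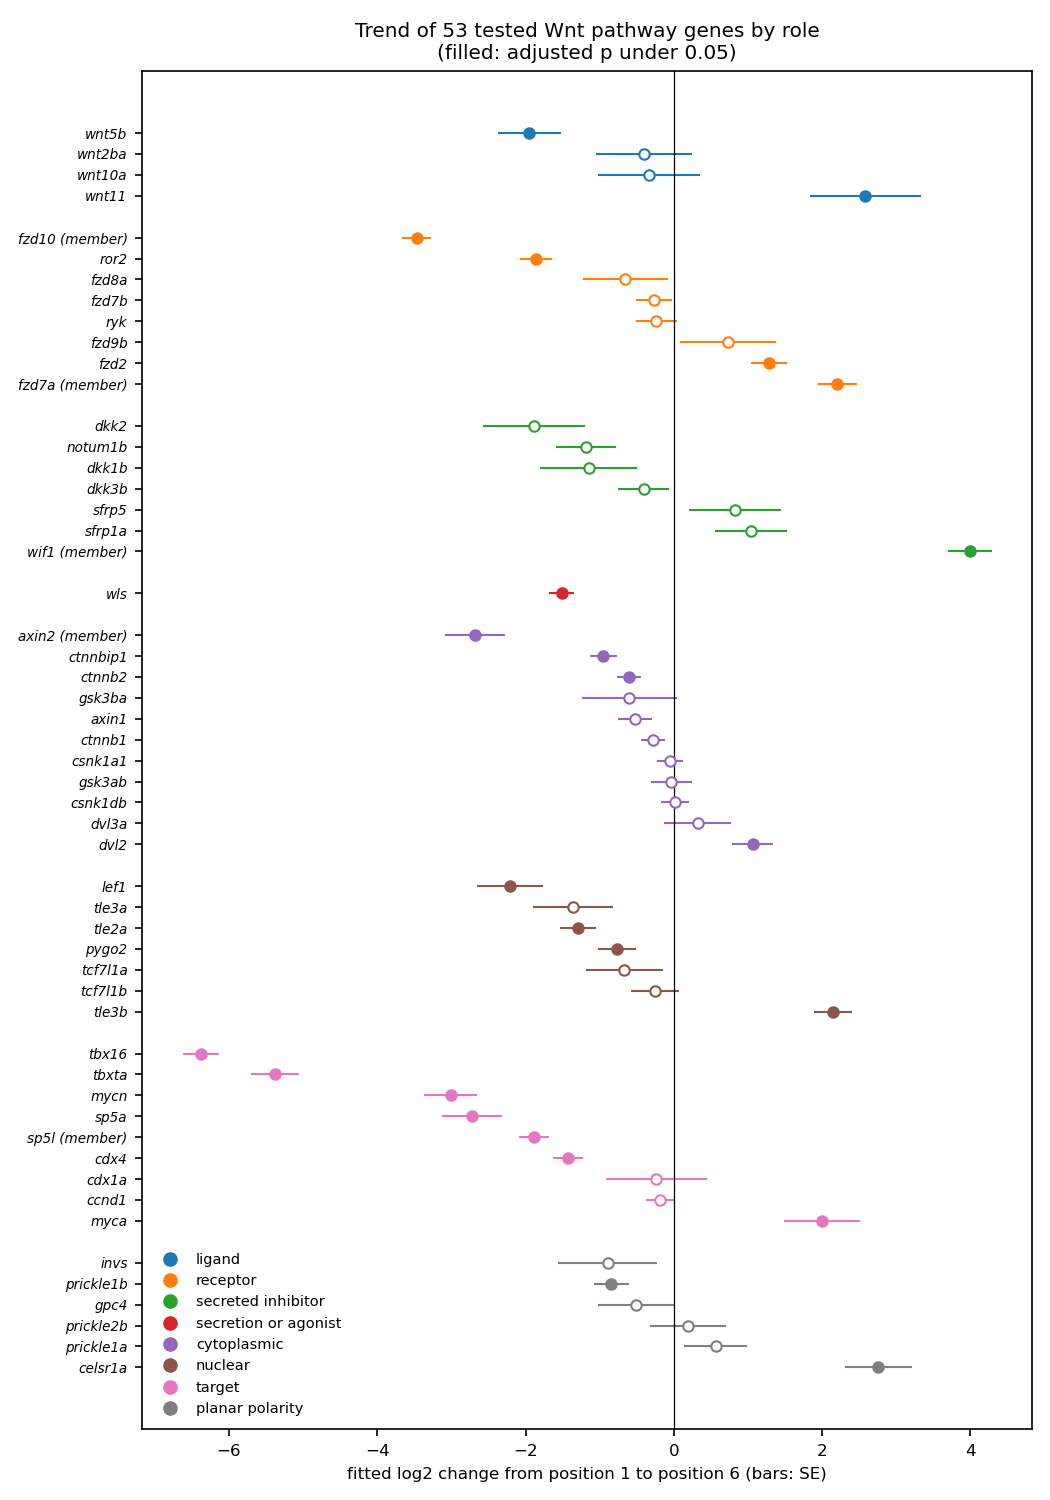
Fitted log2 change from position 1 to position 6 for the 53 tested Wnt pathway genes, grouped and coloured by role, with bars for the SE and filled points for an adjusted p under 0.05. Each gene is drawn once, so *axin2*, *lef1* and *dkk1b* are not among the points of the targets. Among the receptors *fzd10* lies at -3.47 and *fzd7a* at 2.21, *wif1* is the only filled secreted inhibitor, and the targets lie mostly left of 0.

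For each member the 4 genes of most similar signal were taken by Pearson's r over the 12 arrays, among 4616 named genes. These values are descriptions, since the arrays share positions. The genes were picked for likeness on these same arrays, so a course shared with the member follows from the choice. No calls are given for their differences between positions. The genes most like *fzd10* were *tbx16* (r = 0.98), *itm2cb* (0.98), the integrin gene *itgb5* (0.97) and *tbx16l* (0.96). Each had a smaller mean at position 4 than at position 3, such as *itgb5* with 176 ± 14.3 at position 3 and 108 ± 9.97 at position 4. Those most like *fzd7a* were the actin gene *actc1a* (0.94), *trim109* (0.94), *emp2* (0.93) and *unc45b*, which encodes a myosin chaperone (0.92). All 4 of these were highest at position 6, where *fzd7a* was level with the center and anterior PSM within the error.

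The genes most like *wif1* were *gnl3l* (0.96), *gtpbp4* (0.94), *net1* (0.92) and *cebpz* (0.91), and 3 of these 4 also had their highest mean at position 5. Their changes were smaller than that of *wif1*: *gtpbp4*, which acts in ribosome biogenesis, measured 1403 ± 206 in the tailbud center, 2927 ± 266 at position 5 and 2326 ± 169 at position 6. Those most like *axin2* were *ptmaa* (0.92), *chsy3* (0.90), the replication clamp gene *pcna* (0.89) and *sox11a* (0.89), each with its highest mean at position 1. Those most like *sp5l* were the ligand gene *wnt5b* (0.87), the Hox gene *hoxa10b* (0.85), *mdc1* (0.84) and *dlgap5* (0.83). Each of these 4 had a smaller mean at position 4 than at positions 3 and 5, with 94.1 ± 14.6 at position 4 and 136 ± 5.94 at position 5 for *hoxa10b*.

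**Figure D5:**
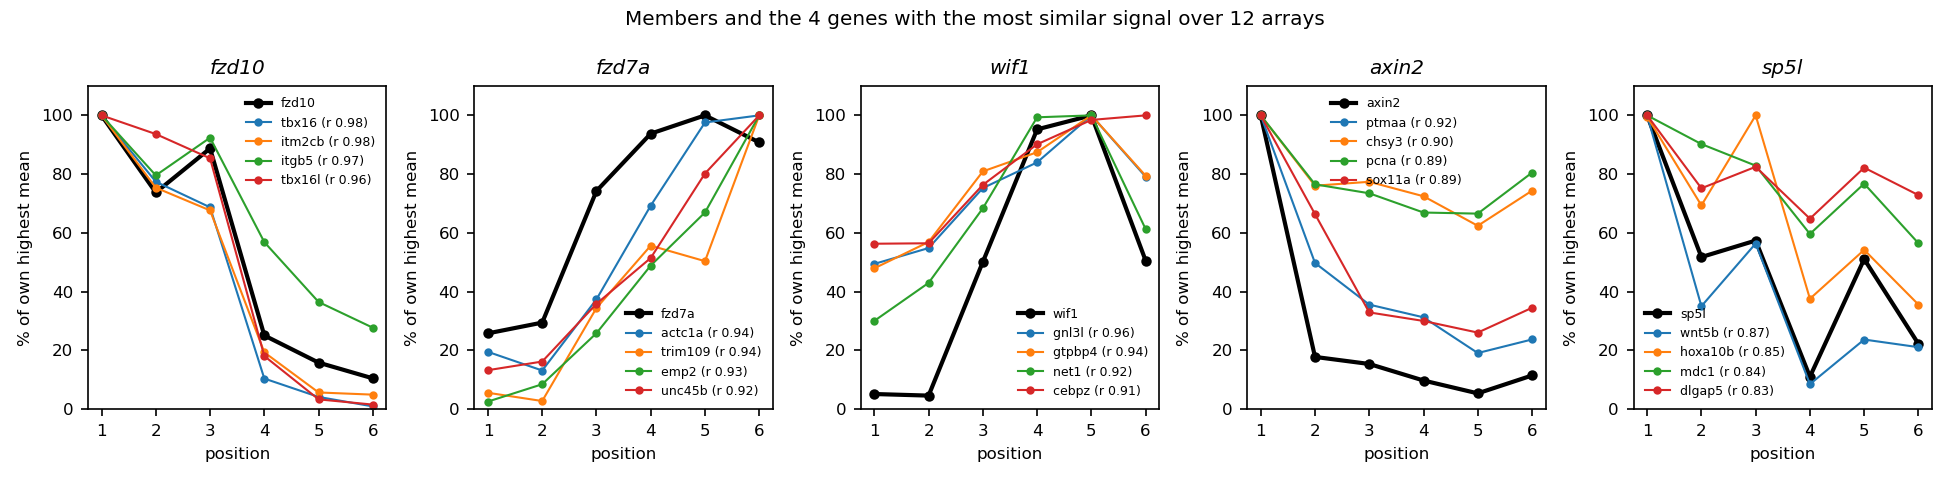
Mean signal at each position as a percent of the gene's own highest mean, for each member (black) and the 4 genes with the highest Pearson r with it over 12 arrays. The 4 genes beside *fzd10* fall between positions 3 and 4, and those beside *fzd7a* climb to position 6. Those beside *sp5l* have a smaller mean at position 4 than at positions 3 and 5, though *hoxa10b* and *mdc1* have their lowest means at position 6.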

How the data were processed

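Per the labels' protocols, total RNA was extracted with Trizol and biotin-labelled cRNA was hybridized to an Affymetrix array. The deposited values are MAS5 intensity signals, per the submitters' processing notes, version not given in the sources used here. Checked on the values, the mean of each array after trimming 2% at either end was 150.0, as scaling by 1 factor per array gives. Detection calls were not used here, so low signals are reported without a statement on presence. The 115 control probe sets were left out, as were 4651 probe sets with a mean log2 value below the 30th percentile. The offset of 12.2 is the 25th percentile of all values. Symbols come from the platform annotation, and 4572 probe sets have none. Genome coordinates and sequences were not used here.

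Position means were estimated with limma (version 3.58.1, under R 4.3.3), which let the prior variance follow the mean signal. Tests were two-sided: F, linear trend, positions 3 to 5 against the ends, and all 15 pairs. Genes were named by a rule: all members, at most 4 called Wnt genes per role and direction plus those called in the middle, and the 4 most similar genes per member. The members, lists and tests were chosen with earlier results of these data known. The number of arrays limits the precision. The trend test was tried on simulated data with linear changes and independent normal noise. The F test, the pairs and the contrast of the middle with the ends were not simulated.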

Additional observations from a re-analysis of the deposited data

How the results depend on the processing

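Other settings concerned the scaling (quantile, or centring on the median), the offset (none, or 50.2), the filter (none, or the 60th percentile), the variance model (no intensity trend, or weights per array), a block for the replicate number, and the omission of position 2 or of each array in turn, where the lone array left was assumed to vary like the others. No called difference of a named gene changed sign. Without the intensity trend the F test missed *fzd7a* (adjusted p = 0.0572) and *axin2* (0.0501), the middle of *fzd7a* (0.96) and *axin2* (-1.65) was not called, and counts were 419 by F (1210 as reported), 409 higher and 430 lower along the trend (770 and 664), and 26 member pairs (44). Under median centring the middle of *fzd7a* was 0.49 and not called, that of *sp5l* was -0.99 and called, 262 probe sets were lower along the trend, which moved the share of trend calls that were higher from 53.7% to 80.1%, and 9 Wnt genes were lower at position 6 than at position 1 (14 as reported). With the replicate block the middle of *sp5l* was -0.52 and called (adjusted p = 0.0445), and no other member result from the F test, the trend, the ends or the middle changed its call. The values gave no sign that the replicate numbers pair the samples: deviations of same-numbered arrays correlated between -0.07 and 0.08 over 15 pairs of positions. Such weak correlations cannot exclude a shared origin of same-numbered pieces, which the sources used here do not state. With 1 array left out, the middle of *sp5l* ran from -0.71 to -0.32 and the Wnt genes higher along the trend from 5 to 8. With 2 arrays per position, the SE of a difference between positions was 0.24 to 0.48 on the log2 scale for the members, which limits what single steps can show.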
